A study of Homo sapiens with 6 samples.

Results

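The A1dm regions without A1 overlap are the stretches of RNA that the salt-bridge mutant of hnRNP A1 was found on, and for which no cluster of the monomeric wild-type protein was listed. They were chosen by a rule on the deposited cluster lists: clusters of both A1dm libraries were merged where they overlapped by at least 1 nt on the same strand, and a merged region was kept when it overlapped no cluster of either A1 library on that strand. Of 794 A1dm regions, 414 met the rule, which is 52.1% of them, and the other 380 overlapped an A1 cluster. The absence from A1 is therefore how the 414 regions were selected and is not a result. A cluster is a short interval in which reads with T-to-C substitutions piled up, and a region is 1 cluster or 2 merged ones.

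The data came from PAR-CLIP in HEK293T cells, a human embryonic kidney line, that were transiently transfected with plasmids for myc-tagged hnRNP A1. Every group was treated with 4-thiouridine, cross-linked by ultraviolet light and precipitated with the same anti-myc antibody. The groups were the monomer band of the wild-type protein (A1), the slower wild-type band that the labels call dimeric (A1-HMW), and the monomer band of the mutant bearing R75D and R88D (A1dm), with 2 libraries each and 6 in all. The study describes the slower band as possibly dimeric and the replicates as independent experiments. The protein in all groups was expressed from a plasmid, and the labels name no removal of the cells' own hnRNP A1. The A1 libraries held 5805 and 8100 clusters, the A1-HMW libraries 671 and 865, and the A1dm libraries 232 and 596. In the lists used here the score was 0 in every line, so they gave no depth or cluster height. A separate table of the study, which its legend describes as holding reads per cluster from another caller, was not analysed here. A region that a list lacks may therefore have gone undetected in that library, and this cannot be told apart from a lack of binding.

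hnRNP A1 is an abundant nuclear RNA binding protein that takes part in alternative splicing, RNA export and translation. Its tandem RNA recognition motifs contact each other through salt bridges, and the A1dm substitutions remove these contacts. The word UAGG, written TAGG in genome sequence, is the classic recognition element of the protein. A purine run is an unbroken series of A and G.

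Of the 414 regions, 9 were found in both A1dm libraries. They are the members with support from both, and 8 of them lie on chromosomes for which the reference sequence could be read. Their sequences are given 5′ to 3′ on the strand of the cluster, from build hg19, with the longest purine run in capitals.
MCU intron, chr10:74594309-74594340, plus strand: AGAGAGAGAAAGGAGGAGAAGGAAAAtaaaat
HMGB2 coding sequence, chr4:174254243-174254266, minus strand: gatAAGAAGGGGAAGAAAAAGGAc
ENSG00000259001 exon, chr14:20811381-20811410, minus strand: cgcgaggtcagactgggcAGGAGAtgccgt
AGBL5 intron, chr2:27273732-27273754, plus strand: cGAAGGActtcgtctgtaatttt
FGF13 intron, chrX:138218039-138218058, minus strand: acatgatGAAGGAcgtgata
intergenic, chr1:80076501-80076524, plus strand: atttctgaatGGGGAAActcaatt
ENSG00000236469 intron, chr2:71273531-71273559, minus strand: ccctggcggtctagtggttAGGAttcggc
intergenic, chrY:3235817-3235847, plus strand: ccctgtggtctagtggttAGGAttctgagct
The ninth lies on the mitochondrial genome at position 12181 to 12207 of the minus strand, and its sequence was not read because the reference holds another version of that genome than hg19 does.

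The 8 sequences differed from each other in purine content. The MCU region, in an intron of the gene for the mitochondrial calcium uniporter, held an unbroken run of 26 purines. The HMGB2 region, in the coding sequence of a high mobility group protein that bends DNA, held a run of 20. The nearest A1 cluster on the same strand was 944 nt from the HMGB2 region and 126202 nt from the MCU region. HMGB2 held an A1 region elsewhere in the gene. The other 6 had longest runs of 4 to 7 nt, so 2 of 8 recurrent members with sequence held a run of at least 12 purines. Of the 25 A1dm regions that recurred and overlapped A1, 20 held such a run.

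The regions in ENSG00000236469 and on chromosome Y were not independent in sequence. They share an unbroken stretch of 19 nt, shown in capitals here because it is the longest stretch common to both.
ENSG00000236469 intron: ccctggcGGTCTAGTGGTTAGGATTCggc
intergenic, chromosome Y: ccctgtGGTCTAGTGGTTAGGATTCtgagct
This stretch was present in 2 regions of each A1dm library and in 0 regions of the A1 and A1-HMW libraries. How reads of this shared sequence were placed between the 2 loci was not tested.

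The ENSG00000259001 region belongs to a transcript that held more members than any other gene, 4 in all, each on the minus strand close to each other. The remaining 3, all from A1dm replicate 2 alone, were at chr14:20811278-20811297, chr14:20811484-20811509 and chr14:20811527-20811548. In the RefSeq gene order, RPPH1, the RNA subunit of ribonuclease P, lies between the flanking genes CCNB1IP1 and PARP2 together with 2 small nucleolar RNAs, SNORA79B and SNORD126. The annotation used for the regions does not hold RPPH1, so whether the 4 members lie in it was not tested. The 4 members lay 252, 139, 40 and 1 nt from the nearest A1 cluster on the same strand. All 4 distances lead to the same A1 cluster, which the last of the 4 adjoined without sharing a base. The AGBL5 region lies in a gene inside which RefSeq places the transfer RNA genes TRY-GTA2-1 and TRA-AGC8-1. The annotation holds no transfer RNA genes, so whether a member touches one was not tested.

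Recurrence between the A1dm libraries was less frequent among the members than among the A1dm regions that overlapped A1. It reached 9 of 414 members (2.17%, 95% Wilson interval 1.15 to 4.08%) against 25 of 380 (6.58%, 4.50 to 9.53%), where 4.28% of all A1dm regions recurred. The difference was -4.41 percentage points, with a 95% Newcombe interval of -7.53 to -1.58. The A1dm regions with A1 overlap were selected for being listed in a further library as well. What part of this difference the rule alone sets was not tested. Within A1dm replicate 1 alone the shares were 9.38% and 18.4%, and the interval of the difference, -17.6 to 0.35 points, held 0. All intervals here cover counting error over regions only. With 2 libraries a group no permutation over libraries could pass a threshold of 0.05, so no p is given. Regions of 1 library share their cells and their depth and are not replicates.

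The members were spread unevenly over the libraries. A1dm replicate 1 held 96 of them, 41.4% of its 232 regions (35.2 to 47.8%), and replicate 2 held 327, 54.9% of its 596 (50.9 to 58.8%). Replicate 1 alone gave 87 members and replicate 2 alone gave 318. The merged values below therefore rest mostly on replicate 2, and the values of each library are given beside them where they differ.

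The most pronounced property of the members was a lower purine content. A run of at least 12 purines, the length used here to call a purine run, was present in 126 of the 407 members with sequence (31.0%, 26.7 to 35.6%) and in 346 of 378 A1dm regions with A1 overlap (91.5%, 88.3 to 93.9%), against 60.1% of all A1dm regions. The difference was -60.6 percentage points (-65.5 to -54.9). It was -48.3 points in A1dm replicate 1 (-58.6 to -36.1) and -64.3 in replicate 2 (-69.6 to -57.9). One side of this comparison is bound to the rule, since a region that overlaps an A1 cluster shares sequence with it, and 96.9% of all A1 regions held a purine run.

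In a comparison with the A1-HMW regions without A1 overlap, neither set shares bases with an A1 cluster. They were selected by the same absence from the A1 lists, and 276 of 444 (62.2%, 57.6 to 66.6%) held a purine run. The members lay 31.2 points below them (-37.3 to -24.7). This set is not free of a link to A1 either, since A1-HMW is the same protein as A1. All A1-HMW regions averaged 87.4% A and G, and all A1dm regions 78.3%. What part of the 31.2 points follows from these whole lists was not tested. Both A1dm libraries, at 38.3% and 28.7%, were below both A1-HMW libraries, at 56.9% and 65.1%. Among the A1 regions found in a single A1 library and in no other library of the series, 96.1% held a run (6588 of 6858). Most members also came from 1 library, but the sets are not matched. The A1 lists held 5805 and 8100 clusters, and the A1dm lists 232 and 596. Whether detection in 1 library bears on purine content was not tested.

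**Figure D1:**
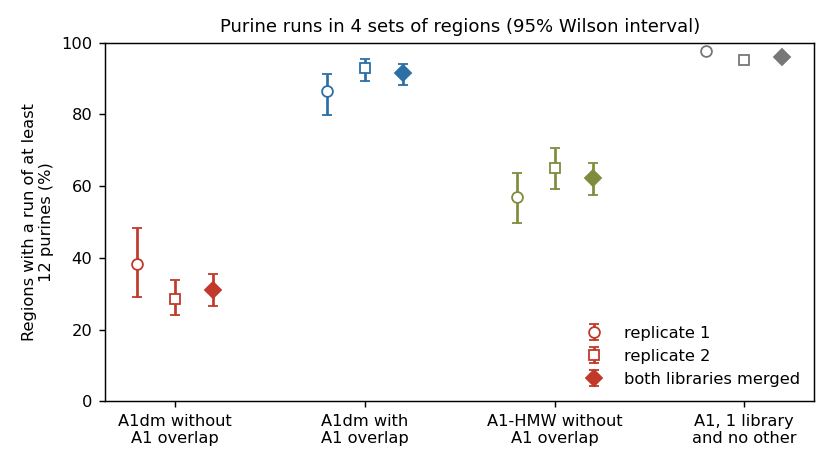
Share of regions with a run of at least 12 purines (y axis, %), for A1dm regions without and with A1 overlap, A1-HMW regions without A1 overlap, and A1 regions found in 1 A1 library and in no other library. Open circles and squares are the first and second library of the group, filled diamonds the merged regions, bars 95% Wilson intervals for counting error. The members, at 38.3% and 28.7%, lie below every other set in both libraries.

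The lower share was present in the 3 largest classes. In mRNA exons 53 of 114 members (46.5%) held a purine run against 91 of 97 A1dm regions with A1 overlap (93.8%). In introns the numbers were 59 of 169 (34.9%) and 211 of 219 (96.3%), and in intergenic regions 13 of 102 (12.7%) and 41 of 57 (71.9%). The intervals of these differences, -56.8 to -36.0, -68.4 to -53.3 and -70.4 to -44.2 points, did not include 0. The A1dm regions with A1 overlap are bound to the rule in each class as well. A1 regions found in 1 A1 library and in no other held a run in 94.0% of those in mRNA exons. The shares were 96.8% in introns and 95.5% in intergenic regions. Within mRNA exons 32 of 50 members in coding sequence held a run (64.0%), compared with 10 of 33 in 3′ untranslated exons (30.3%) and 5 of 15 in 5′ untranslated exons (33.3%).

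The A and G content had the same order. It averaged 69.1% ± 18.2 (SD over 407 regions) in the members, 88.3% ± 11.2 (378 regions) in A1dm regions with A1 overlap and 81.5% ± 14.7 (444 regions) in A1-HMW regions without A1 overlap. The members ranged from 20% to 96.3%, and the longest purine run from 1 to 31 nt with a median of 7 nt, against a median of 19 nt in the A1dm regions with A1 overlap. Per library the members averaged 71.9% in replicate 1 and 68.1% in replicate 2. Both pyrimidines were more frequent in the members. T averaged 17.2% in the members and 8.10% in A1dm regions with A1 overlap, and C 13.8% and 3.61%. A averaged 30.8% and 45.2%, and G 38.3% and 43.1%. The median length was 23 nt in the members, which ranged from 12 to 35 nt, and 24 nt in the others.

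**Figure D2:**
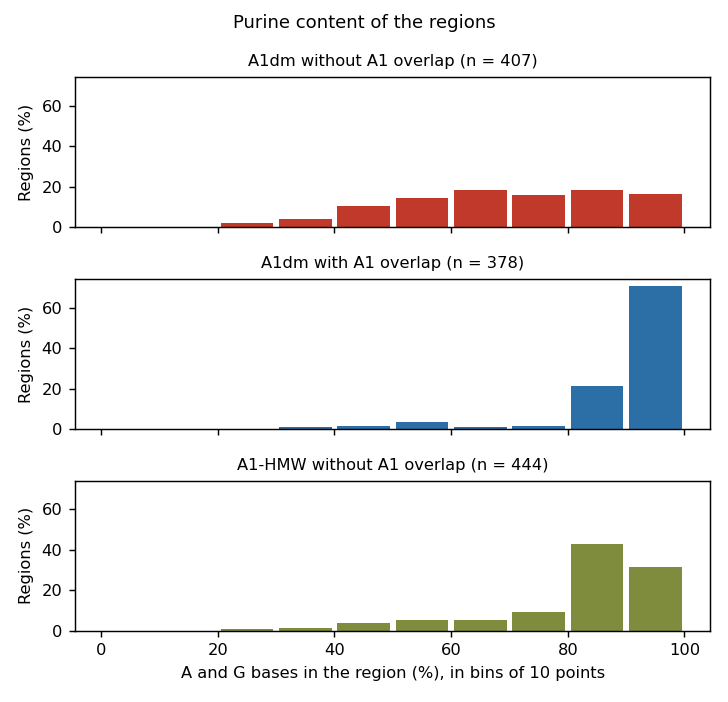
Distribution of the A and G content (x axis, % of bases in bins of 10 points) in A1dm regions without A1 overlap, A1dm regions with A1 overlap and A1-HMW regions without A1 overlap (y axis, % of the regions in each set). The members spread from 20% to 100% with no single peak, whereas 70.6% of the A1dm regions with A1 overlap lie in the highest bin.

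The purine content of the members was spread continuously, and the limit of 12 purines divides them only for description. The 126 with a purine run averaged 89.0% A and G, which is close to the 88.3% of A1dm regions with A1 overlap. The 281 without one averaged 60.2%, made of 22.5% A, 37.6% G, 21.4% T and 18.5% C. Since the run itself divides these sets, their A and G values are a description. Around the centre of the region the 5-nt mean of purine content reached 98.4% in members with a run and 96.2% in A1dm regions with A1 overlap, but 59.8% in members without one. At 100 nt on either side all 3 sets lay between 50.5% and 54.8%. Windows of the region's own length 100 nt upstream held a purine run in 2.70% of the members and 2.12% of the A1dm regions with A1 overlap, and those downstream in 1.72% and 1.85%.

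**Figure D3:**
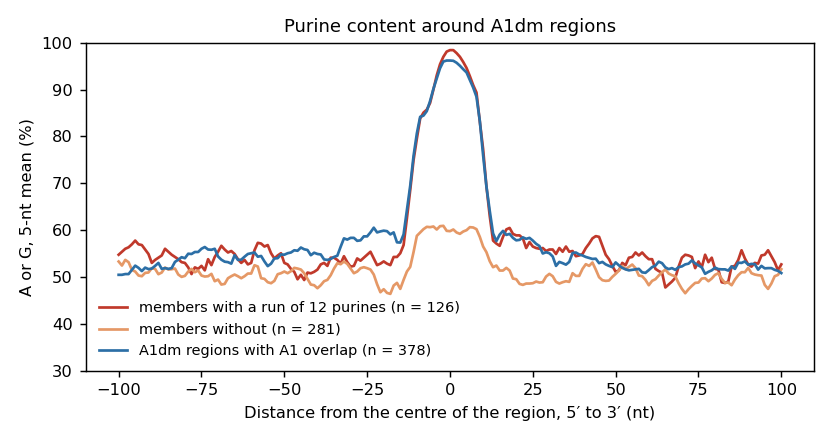
Purine content by distance from the centre of the region (x axis, nt, 5′ to 3′) as the share of regions with A or G at that position, averaged over 5 nt (y axis, %, starting at 30). Members with a run of at least 12 purines and A1dm regions with A1 overlap rise to 98.4% and 96.2% at the centre, members without a run only to 59.8%, and all 3 lines lie between 46.5% and 60.5% from 21 to 100 nt away from the centre.

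Short words were counted in the sequence of the RNA strand, with overlap between words allowed. GAGGAA was present in 9.58% of the members and 33.1% of the A1dm regions with A1 overlap (difference -23.5 points, -29.0 to -17.9), and in 23.0% of A1-HMW regions without A1 overlap. The word consists of purines, so the first of these comparisons is bound to the rule as the purine run is. TAGG was present in 30 of 407 members (7.37%) and 10 of 378 A1dm regions with A1 overlap (2.65%), a difference of 4.73 points (1.67 to 7.92). In A1dm replicate 1 alone it was 5.21 points with an interval that included 0 (-0.40 to 12.5), and in replicate 2 it was 5.19 points (1.56 to 8.89). The TAGG share of the members differed little from the 7.66% of A1-HMW regions without A1 overlap (difference -0.29 points, -3.86 to 3.36), and was 4.94% in A1 regions of a single library. TAGGG was present in 9 members (2.21%) and 1.32% of the A1dm regions with A1 overlap, where the interval, -1.14 to 2.97 points, included 0. TAGG holds a T, and T averaged 17.2% in the members and 8.10% in the A1dm regions with A1 overlap. The TAGG differences were not adjusted for base composition. The stretch of 19 nt shared by the ENSG00000236469 and chromosome Y regions also holds TAGG, so these matches are not separate. A word in a region is a match of letters and not evidence of contact at that word.

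The members were distributed over introns (169), mRNA exons (114), intergenic stretches (102), exons of long noncoding RNAs (13), exons of small RNAs (9) and the mitochondrial genome (7). With intergenic regions left out, mRNA exons made up 36.5% of the members (31.4 to 42.0%) and 30.03% of the A1dm regions with A1 overlap, where the share over all A1dm regions was 33.2%. That difference of 6.51 points had an interval of -0.82 to 13.8 and was not resolved at these numbers, and under the authors' own annotation of the clusters it had the opposite sign, -1.39 points (-6.27 to 3.49). Introns made up 54.2% of the members and 67.8% of the others (difference -13.6 points, -21.0 to -6.05), and intergenic regions 24.6% and 15.0% (9.64 points, 4.09 to 15.1). Both differences were seen in replicate 2, at -13.1 and 10.6 points, while in replicate 1 alone their intervals included 0, with -10.7 points (-24.1 to 2.94) for introns and 3.43 points (-5.67 to 13.3) for intergenic regions.

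Compared with A1-HMW regions without A1 overlap, the members were more often in mRNA exons, at 36.5% against 15.0% (difference 21.6 points, 14.9 to 28.1), and less often in introns, at 54.2% against 80.4% (-26.2 points, -33.0 to -19.0). The mRNA exon share was 33.2% over all A1dm regions, so it is not particular to the members. What part of these differences follows from the whole lists was not tested. This comparison was not repeated with the authors' annotation. The intergenic shares of 24.6% and 27.9% were not resolved from each other (-3.23 points, -9.07 to 2.67). Exons of noncoding RNAs made up 7.05% of the members, 1.55% of the A1dm regions with A1 overlap (difference 5.50 points, 2.40 to 9.01) and 4.36% of the A1-HMW regions without A1 overlap (2.69 points, -0.98 to 6.51). In A1dm replicate 1 alone the first of these differences, 4.96 points, had an interval that included 0 (-1.20 to 13.0), and in replicate 2 it was 5.78 points (2.15 to 9.86). Of the members, 45 of 407 (11.1%) lay within 500 nt of the start of an annotated gene, small RNA genes included, against 3.70% of the A1dm regions with A1 overlap (7.35 points, 3.74 to 11.1) and 3.38% of the A1-HMW set (7.68 points, 4.25 to 11.3). Intronic members lay a median of 1990 nt from the nearest exon and 18.3% were within 300 nt, compared with 1734 nt and 17.8% for the others.

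**Figure D4:**
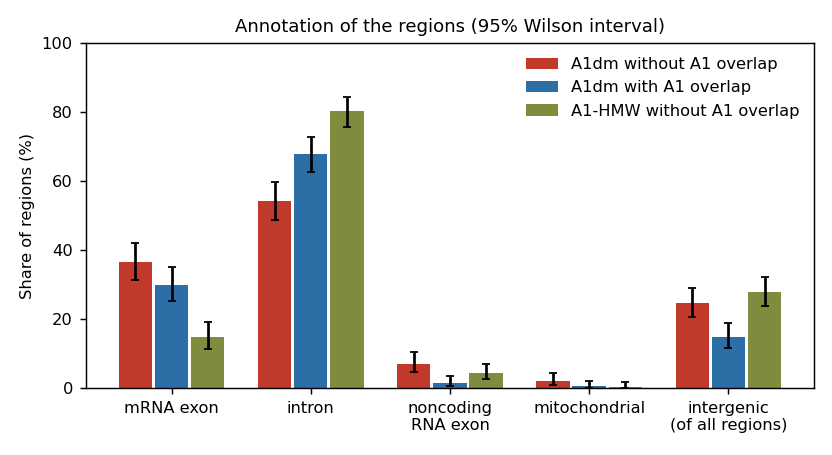
Share of regions in each annotation class (y axis, %) for A1dm regions without A1 overlap, A1dm regions with A1 overlap and A1-HMW regions without A1 overlap, merged over the libraries of each group, with bars for 95% Wilson intervals. The first 4 classes are shares with intergenic regions left out, the last is a share of all regions. The members have 36.5% in mRNA exons and 54.2% in introns, against 15.0% and 80.4% in the A1-HMW set. The A1dm regions with A1 overlap have 30.03% and 67.8%.

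Members with and without a purine run differed in where they lay. Those with a run were in mRNA exons in 46.9% of cases with intergenic regions left out, compared with 31.8% without a run (15.1 points, 3.84 to 26.2), and in coding sequence in 60.4% of the mRNA exon regions compared with 29.5% (30.9 points, 12.6 to 46.5). Intergenic regions made up 10.3% of the members with a run and 31.7% of those without (-21.4 points, -28.4 to -13.0). The intergenic pattern is not particular to the members. Among A1dm regions with A1 overlap, 41 of 346 with a run and 16 of 32 without one were intergenic. Of their mRNA exon regions, 39 of 91 with a run and 5 of 6 without one lay in coding sequence, which is the opposite order. All these values are of the merged libraries.

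In mRNA exons, 63 of the 114 members lay in genes with no A1 region anywhere in the gene, and 26 of these 63 held a purine run. The count of 63 has no baseline, because the A1dm regions with A1 overlap touch an A1 cluster by the rule. NAA15 and RPL13A, with 2 of the 63 members each, are described further on. Among the others, 5 with long runs are shown because they are purine-rich sites in mRNAs on which no A1 cluster was listed. The longest purine run is in capitals.
DDX18 coding sequence, chr2:118575255-118575287, plus strand: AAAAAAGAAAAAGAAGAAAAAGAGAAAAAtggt
HSP90B1 coding sequence, chr12:104332195-104332223, plus strand: agtAGAGGAAGAAGAAGAAGAAAAGAAAc
NOP58 coding sequence, chr2:203167645-203167670, plus strand: tGAAGAAGAGGAAGAAGAAAAAGtgg
DNAJC2 coding sequence, chr7:102962470-102962496, minus strand: agctAAGGAGAAAGAAGAGGAGGAAGt
TTC4 coding sequence, chr1:55194049-55194075, plus strand: aacttGAAAGAAAAGAAGGAGAGGAAt
DDX18 encodes a DEAD-box RNA helicase of the nucleolus and held a run of 29 purines. HSP90B1 encodes the heat shock protein GRP94 of the endoplasmic reticulum and held a run of 25. NOP58, a core protein of box C/D small nucleolar ribonucleoproteins, and DNAJC2, a chaperone that works at the ribosome, held runs of 22. TTC4 held a run of 21. BUB1B, a spindle checkpoint kinase (run of 19), EIF3A, the largest subunit of translation initiation factor 3 (18), PRPF6, a protein of the spliceosomal tri-snRNP (18), MAP9, a microtubule-associated protein (18), and the 3′ untranslated exon of JUND, an AP-1 transcription factor (18), followed. Each of these regions was found in 1 A1dm library, in replicate 1 for NOP58, DNAJC2, BUB1B and EIF3A and in replicate 2 for the others. The nearest A1 cluster on the same strand was between 14887 nt (TTC4) and 1453090 nt (MAP9) away.

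A1-HMW clusters overlapped few members. Of 414 members 16 were held by A1-HMW (3.86%, 2.39 to 6.19%), of which 2 were overlapped by both A1-HMW libraries, 8 by replicate 1 alone and 6 by replicate 2 alone. Of the A1dm regions with A1 overlap 150 of 380 (39.5%) were held by A1-HMW, and over all A1dm regions the share was 20.9%. The difference was -35.6 points (-40.8 to -30.3), and it was -37.9 in A1dm replicate 1 and -35.4 in replicate 2. It depended more on the A1-HMW libraries, at -26.2 points without A1-HMW replicate 1 and -21.0 (-25.7 to -16.6) without A1-HMW replicate 2. A1 and A1-HMW carry the same protein, so presence in one list and in the other are linked, and what part of this difference the rule alone sets was not tested.

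The 16 shared with A1-HMW were mostly low in purines. Of these, 15 lacked a run of 12 purines, 7 were intergenic, 6 intronic, 2 in small RNA exons and 1 in an mRNA exon. A1-HMW held 5.34% of the members without a run (15 of 281) and 0.79% of those with one (1 of 126), a difference of -4.54 points for those with a run (-7.89 to -0.42). The sequences in both A1-HMW libraries, and the only one with a run, are shown because they are the members the wild-type protein was found on in its slower band, with the longest purine run in capitals.
intergenic, both A1-HMW libraries, chr10:104248190-104248209, plus strand: attctccAAGGctaaatact
intergenic, both A1-HMW libraries, chr3:39585510-39585534, minus strand: tAGGAAGtcccagtaaactgtggcc
RBFOX2 3′ untranslated exon, A1-HMW replicate 1, chr22:36136702-36136725, minus strand: gtttAAGGAGGAGAAAGGGGAAGc
RBFOX2, a splicing regulator, held a run of 19 purines and 83.3% A and G. The 2 regions in both A1-HMW libraries had longest runs of 4 and 6 nt and 45.0% and 56.0% A and G. Both came from A1dm replicate 2 alone.

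Of the 9 recurrent members, 3 were also held by A1-HMW, the intergenic region of chromosome 1 and the AGBL5 intron by its replicate 1 and the FGF13 intron by its replicate 2. FGF13 encodes an intracellular fibroblast growth factor homologue that acts on sodium channels, and AGBL5 a carboxypeptidase of tubulin. These 3 regions were thus listed in both A1dm libraries and 1 A1-HMW library. Further members held by 1 A1-HMW library lay in introns of ANKRD11, a chromatin regulator (66.7% A and G), and EIF4E, the cap-binding protein (76.0%), and in intergenic stretches of chromosomes 3, 9, 13 and 19 with 57.7% to 75% A and G. The remaining 2 of this kind lay in introns.

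On the chromosome the members were mostly far from A1 clusters. An A1 cluster existed on the same chromosome and strand for 410 of 414 members, at a median distance of 52529 nt with quartiles of 14687 and 273466 nt. Within 100 nt of an A1 cluster lay 9 members (2.17%), within 1000 nt 25 (6.04%), and within 10000 nt 83 (20.05%). The members nearest to the limit of the rule were the ENSG00000259001 region that adjoined an A1 cluster at 1 nt, ENSG00000270103 at 12 nt, ZNF326 at 21 nt, a mitochondrial region at 27 nt and PRRC2C at 28 nt. Just outside the rule were the A1dm regions with the smallest overlap, LMNB2 with 8 nt, PHF8 with 10 nt, FYN with 14 nt, an intergenic region of chromosome 7 with 16 nt and RWDD2A with 17 nt. Of the 380 regions with A1 overlap, A1 clusters covered 246 (64.7%) over their whole length. Few regions were therefore close to the boundary on either side.

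**Figure D5:**
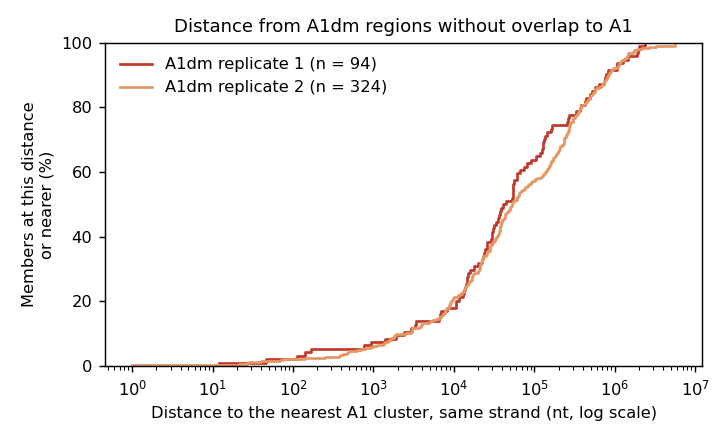
Cumulative share of members (y axis, %) by distance to the nearest A1 cluster on the same strand (x axis, nt, log scale), for members in A1dm replicate 1 and in replicate 2, over those with an A1 cluster on their chromosome and strand. In both libraries few members lie within 1000 nt of an A1 cluster, and the median over all members is 52529 nt.

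Of the members, 305 lay in 294 genes. An A1 region elsewhere in the same gene was listed for 139 of these genes (47.3%) and none for 155 (52.7%), an A1dm region shared with A1 for 21 (7.14%), and an A1-HMW region for 55 (18.7%). The A1dm regions with A1 overlap touch an A1 cluster by the rule, so they give no baseline for the A1 counts. These gene counts are a description. Intronic members with a purine run were in genes with an A1 region in 41 of 58 genes (70.7%), those without a run in 46 of 110 (41.8%). Most genes had a single member. Besides ENSG00000259001 with 4, the 8 genes with 2 members were MALAT1, HM13, XRCC4, NAA15, DTNA, RPL13A, CREB5 and SON.

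These pairs of members were alike in some genes and unlike in others. In NAA15, the auxiliary subunit of the N-terminal acetyltransferase NatA, a 5′ untranslated exon and a coding region each held a run of 16 purines. In CREB5, a transcription factor of the CRE-binding family, 2 intronic regions held runs of 17 and 15. In XRCC4, a protein of DNA end joining, 1 intronic region held a run of 18 and the other a longest run of 2. DTNA, which encodes dystrobrevin alpha, had intronic runs of 22 and 5, and HM13, the signal peptide peptidase, an intronic run of 7 and a coding run of 16. The pair in RPL13A, a protein of the large ribosomal subunit, had runs of 5 and 2, and both regions also lie in exons of small nucleolar RNAs that the gene hosts, SNORD33 at chr19:49993875-49993894 and SNORD35A at chr19:49994447-49994462.

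Among the gene lists, core spliceosome proteins held 7 members in 6 genes, compared with 4 A1dm regions with A1 overlap, out of 305 and 321 regions in genes. That is 2.30% and 1.25%. PRPF6 (coding, run of 18), SNRPB (noncoding exon, 11) and U2AF2 (3′ untranslated exon, 10) were the most purine-rich by run length. SF3B3 and PRPF31 held intronic members with runs of 8 and 6. SON, a nuclear speckle protein, held 2 coding members with runs of 5 and 3, both in a gene with A1 regions elsewhere. Translation factors held 3 members in EIF3A (run of 18), EIF5B (16) and EIF4E (11), beside 1 region with A1 overlap. Chromatin remodelers and histone chaperones held 1 member, HMGB2, beside 7 with A1 overlap.

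The remaining protein lists held few members. hnRNPs and related proteins had 2, beside 5 with A1 overlap. EWSR1 held a noncoding exon region with a run of 12. HNRNPA1 held a 3′ untranslated region with a run of 6, which also counts in the list of known hnRNP A1 targets with 1 member. HNRNPA1 is the transfected gene, and RNA from the plasmid and from the chromosome cannot be told apart. SR proteins held 1, in the 3′ untranslated exon of SRSF1 (run of 17), ribosomal proteins 2, both in RPL13A, stress response genes 1, HSP90B1, and histones 0. No list was tested, and the numbers are too small to call any list particular to the members.

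Nuclear long noncoding RNAs held 6 members in 5 genes, beside 1 A1dm region with A1 overlap. MALAT1, an abundant RNA of nuclear speckles, held 2, at chr11:65269014-65269041 with a run of 13 purines and at chr11:65269516-65269537 with a run of 8. They lay 46 and 413 nt from an A1 cluster, so A1 was listed on the same RNA nearby. NEAT1, the scaffold of paraspeckles, held 1 with a run of 5, GAS5, a host of small nucleolar RNAs, 1 with a run of 2, and DLEU2 and PVT1 1 intronic region each with runs of 19 and 21. Of the 13 members in exons of long noncoding RNAs, 1 held a run of at least 12 purines, the one in MALAT1. The 13 include those of ENSG00000259001, for which overlap with RPPH1 was not tested.

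The 9 members in exons of small RNAs held no purine run of 12. They lay in MIR186, MIR3648, MIR3687, RNU5B-1, RNU1-109P, RNU1-67P, RN7SL2, RN7SL272P and RNA5SP132, which are microRNA, spliceosomal RNA, signal recognition particle RNA and 5S ribosomal RNA genes or their pseudogene copies. Each was found in 1 A1dm library, in replicate 1 for RNU1-67P and in replicate 2 for the others. The spliceosomal, signal recognition particle and 5S ribosomal RNAs exist in many near-identical copies, so the gene named for such a region is uncertain. The MIR186, MIR3687, RNU5B-1, RNU1-109P, RNU1-67P, RN7SL272P and RNA5SP132 sequences themselves each have 1 exact copy in the genome. Copies that the assembled sequence lacks were not counted. The RN7SL2 sequence has 14 exact copies in the genome, the 12 nt of the MIR3648 region 1595, and 8 members in all have more than 1. A further 3 members that were counted in mRNA exons also lie in small RNA exons, against 0 of the A1dm regions with A1 overlap. They are the 2 RPL13A regions and one in a 5′ untranslated exon of C12orf57 that is also RNU7-1, the U7 RNA of histone mRNA processing. These 3 were singled out after their values were seen. The MIR186 region, chr1:71533363-71533392 on the minus strand, matched the RefSeq hairpin of MIR186 over its whole 30 nt, from position 8 to 37 of 86. No hairpin of MIR3648 or MIR3687 was available, so whether those regions come from a microRNA was not tested. MIR3687 was held by A1-HMW replicate 2 and RNA5SP132 by A1-HMW replicate 1. On the mitochondrial genome 7 members were listed, 3 on the plus and 4 on the minus strand, of which 1 recurred.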

How the data were processed

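The data were 6 lists of PAR-CLIP clusters. Per the methods and the file headers, the authors trimmed reads with BBduk, removed ribosomal RNA, aligned reads by STAR (Bowtie and hg19 appear in the submitters' processing notes), scored T-to-C changes in wavClusteR, generated peaks in PARalyzer and annotated with HOMER. The headers of the lists used here name wavClusteR clusters. The deposited score column held 0 throughout, and the other deposited columns used were positions. Versions are not given in the sources used here. Starts lay 1 nt above those in the cluster identifiers and were lowered by 1. Regions were annotated by strand with GENCODE v44 lifted to the same build, mRNA exons before other exons and exons before introns, and sequences were read with samtools 1.23.1. Shares have 95% Wilson and Newcombe intervals computed in Python 3.11.15, tested on simulated data. Members and gene lists were chosen with earlier results of these data known. Regions were named when they recurred, shared a gene, were overlapped by A1-HMW, fell in a gene list, a small RNA or an mRNA without A1 regions, or lay nearest the rule's limit. Alternatives covered the start, the overlap, the strand, the annotation, the run length and each library. One region that met this rule is not reported here.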

Additional observations from a re-analysis of the deposited data

How the results depend on the processing

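Of 108 values recomputed over 20 alternatives, 103 kept their direction and their side of 0 or stayed close to the main value. The mRNA exon share, whose main interval held 0, turned to -1.39 points with the authors' annotation. Without A1dm replicate 2 the number of members was 96, the intronic difference -10.7 points and the intergenic difference 3.43 points, both with intervals that held 0, and the difference in A and G content -14.4 points. With 1 library left out at a time, the number of members ranged from 96 to 495, the intronic difference from -13.4 to -9.62 points, the intergenic difference from 3.43 to 10.7 points the difference in A and G content from -20.6 to -14.4 points and the A1-HMW overlap difference from -37.9 to -21.0 points. With the replicate block, in which each A1dm library was paired with the A1 library of the same number, 466 regions were members, the purine run difference was -57.6 points and no direction changed. The recurrence share has no value with 1 A1dm library. Restricting the sequence comparison to regions with 1 exact copy in the genome, or to those of 20 nt or longer, was chosen after seeing the data and gave -60.2 and -58.8 points, and so was taking small RNA exons before mRNA exons, which gave an mRNA exon difference of 5.55 points. Lists without read numbers limit what absence from A1 means (the study's table with reads per cluster was not analysed here), and the 232 and 596 clusters of A1dm limit the precision.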
